A study of Salmo salar with 8 samples.

Results

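The genes described here are the 4 Atlantic salmon gene copies matched to human CLDN4, named LOC106612824, LOC106581065, LOC106612819 and LOC106563812, together with ocln, the gene of occludin. They were taken by their identifiers as 5 of the 34514 genes listed in the count tables of single gill nuclei, with earlier results of these data known. Gills of Atlantic salmon were profiled by single nuclei RNA sequencing at 4 time points of smoltification, the change that readies juvenile fish for the sea, with 2 samples at each. T1 fish were parr in freshwater and constant light. T2 fish had then spent 8 weeks in a short photoperiod of 8 h light and 16 h dark, T3 fish a further 8 weeks back in constant light, and T4 fish a final 24 h in seawater. These times are those of the labels, and the day counts in the study's methods make both photoperiod phases somewhat shorter at sampling. Nothing in the sources used here says that the duplicates came from separate fish, so that p-values measure only the spread between these samples, which may be technical.

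Tight junctions seal the space between neighbouring epithelial cells. Claudins are membrane proteins with 4 transmembrane segments whose extracellular loops meet across that space and set how tight it is and which ions pass, occludin is a second membrane protein of the same strands, and scaffold proteins such as ZO-1 and cingulin tie both to the cytoskeleton. In the fish gill the pavement cells that cover most of the surface are joined by deep tight junctions, while ionocytes and their accessory cells, in fish that live in seawater, share shallow ones through which sodium leaves.

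The 8 samples held 19709 nuclei and 27390978 UMIs (unique molecular identifiers, each standing for 1 captured transcript), with 1748 to 3373 nuclei and 2770081 to 4383507 UMIs per sample and a median of 849 UMIs per nucleus. T2 replicate 2 and T2 replicate 1 lay farthest apart in depth. Nuclei with more than 2500 genes held 47.0% of the UMIs of the former and 8.43% of those of the latter, and the median UMIs of the RHCG gate described next were 2763 and 690. Any 2 samples shared 0 to 6 nucleus barcodes.

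Nuclei were sorted by marker genes into gates, each needing at least 2 UMIs of its markers. The gates take their names from RHCG (an ammonia transporter gene, used as the pavement cell marker), CUZD1, COL4A1, nkcc1a (ionocytes), Notch1, rhag (vascular cells), muc5ac (goblet cells), CD3 genes (T cells), flt3, otospiralin and ccl28. Nuclei positive for RHCG and COL4A1 alone formed a class of their own, nuclei in any other combination were set apart as several gates (2449 nuclei), and 8436 nuclei were in none. The RHCG gate held 4252 nuclei, 241 to 984 per sample. Other genes of these cell types followed the gates in part. A Na,K-ATPase alpha-1 gene (LOC106575572) reached 4244 CPM (UMIs of the gene per 1000000 UMIs) in the ionocyte gate and was higher there than in the rest in 8 of 8 samples, and CD2 (LOC106575540) reached 159 CPM in the T cell gate, higher in 7 of 8. The other T cell genes followed less closely, lck and CD5-like (LOC106602649) being higher in that gate in 4 of 8 samples and CD2-like (LOC106563739) in 5 of 8, the last at 58.5 CPM there and 119 CPM in the flt3 gate. The chloride channel gene CFTR II was at 83.2 CPM in the ionocyte gate, higher than in the rest in 6 of 8 samples. It was at 112 CPM in the COL4A1 gate, higher in 8 of 8. The check genes of the RHCG gate, LOC106578055 (ferric-chelate reductase 1) and the uncharacterized LOC106611931 and LOC106588301, were at 4766, 4207 and 1144 CPM there. Each was higher in that gate than in the rest in 8 of 8 samples. In the CUZD1 gate they were at 2415, 3963 and 677 CPM, so that they did not set the RHCG gate apart from it cleanly. The summed hemoglobin genes, made by red blood cells, were found in every gate, from 1857 CPM in the ccl28 gate to 14070 CPM in the rhag gate, and their part in the results below was not tested. Doublets were not called, so that some nuclei of several gates may be pairs. Nuclei positive for nkcc1a and COL4A1 were placed there as well, so that the ionocyte gate lacks them. The study tells its seawater ionocytes (mitochondrion-rich cells) from those of freshwater partly by Col4a1, so its seawater type may be largely missing from that gate.

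All 5 genes were common transcripts of the gill. LOC106581065 had 9936 UMIs and was found in 25.7% of nuclei, LOC106563812 had 8463 UMIs in 18.4%, LOC106612824 had 7410 UMIs in 18.8%, LOC106612819 had 7086 UMIs in 19.7%, and ocln had 8395 UMIs in 24.1%. At least 1 of the 4 copies was found in 50.6% of nuclei. Most nuclei positive for a gene held a single UMI of it (62.4 to 66.3% over the 5 genes). In the gene order of the RefSeq annotation of a later assembly (Ssal_v3.1), LOC106612824 and LOC106612819 lie close together on chromosome 9 with a protein-coding gene and a pseudogene between them, LOC106581065 lies on chromosome 20 beside cldy, another claudin gene of the list below, LOC106563812 on chromosome 11, and ocln on chromosome 15 beside a MARVEL domain gene. The sequences of the copies were not compared. Reads that fit more than one copy may not have been counted for the right one, so that the split between copies is uncertain to that extent.

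The other 3 copies and occludin shared a place, and LOC106612824 had another. LOC106581065, LOC106612819, LOC106563812 and ocln were highest, among gates with at least 10 nuclei in every sample, in the RHCG gate and in the class positive for RHCG and COL4A1. Nuclei of several gates, a mixture, were left out of this order, and the smaller gates were described only. Nuclei positive for RHCG were taken out of the other single gates and of ungated nuclei. That may by itself widen differences from the RHCG gate for genes found together with RHCG, which was not tested. The order was set by the mean CPM of each gene in these same samples. Tests between neighbours in it therefore describe steps already seen. Those against the rhag gate do so too, since that gate became the comparator after the data were seen. LOC106612824 was highest in the Notch1 gate and, among the smaller gates, in the ccl28 gate.

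LOC106581065 stood at 624 ± 206 CPM in the RHCG gate (SD, n = 8 samples) and 584 ± 139 CPM in the RHCG and COL4A1 class. Outside the order, nuclei of several gates stood at 348 ± 87.2 CPM and the CUZD1 gate at 437 ± 200.1 CPM. The next level in the order was 192 ± 75.6 CPM in ungated nuclei, and the lowest was 86.8 ± 41.6 CPM in the rhag gate. The first 2 classes could not be told apart (mean within-sample difference 0.07 ± 0.36 in log2(CPM + 1), SD; exact sign-flip test, two-sided, adjusted p = 0.762 over 65 comparisons), whereas the RHCG and COL4A1 class lay above ungated nuclei by 1.68 ± 0.68 in 8 of 8 samples (adjusted p = 0.0195 by the exact test, which is the smallest these comparisons gave).

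LOC106612819 was at 455 ± 120.5 CPM in the RHCG gate, 421 ± 138 CPM in the RHCG and COL4A1 class, 116 ± 29.6 CPM in ungated nuclei and 61.4 ± 35.9 CPM in the rhag gate (SD, n = 8). Nuclei of several gates were at 245 ± 76.1 CPM and the CUZD1 gate at 292 ± 128 CPM. The step from the RHCG and COL4A1 class to ungated nuclei, the next in the order, was 1.83 ± 0.63 on the log2(CPM + 1) scale in 8 of 8 samples (exact sign-flip test, adjusted p = 0.0195). LOC106563812 was at 475 ± 451 CPM in the RHCG gate. This SD, near the mean, takes in differences between time points and between duplicates, both given below. The gene was at 428 ± 353 CPM in the RHCG and COL4A1 class, 340.3 ± 293 CPM in nuclei of several gates, 136 ± 117 CPM in ungated nuclei and 62.1 ± 45.7 CPM in the rhag gate. In spite of that spread it was higher in the RHCG gate than in the rhag gate of the same sample in 8 of 8 samples, by 2.67 ± 1.13 in log2(CPM + 1) (adjusted p = 0.0195, exact). In the CUZD1 gate, which held 362 nuclei but only 5 in its smallest sample and was not tested, LOC106563812 was at 571 ± 339 CPM.

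Occludin shared the highest classes of these 3 copies. It was at 464 ± 111 CPM in the RHCG gate and 428 ± 99.2 CPM in the RHCG and COL4A1 class, and at 214 ± 93.1 CPM in the ionocyte gate, 187 ± 37.5 CPM in ungated nuclei and 186 ± 68.6 CPM in the Notch1 gate (SD, n = 8). The ionocyte gate lay below the RHCG and COL4A1 class by 1.09 ± 0.50 in log2(CPM + 1) in 8 of 8 samples (exact sign-flip test, adjusted p = 0.0195). Ungated nuclei could not be told apart from the ionocyte gate or from the Notch1 gate (adjusted p = 0.798 for both steps, exact). The ionocyte, ungated and Notch1 levels each lay above the rhag gate, the lowest in the order for ocln, in 8 of 8 samples. The differences were 1.73 ± 1.17, 1.64 ± 0.83 and 1.57 ± 1.02 in log2(CPM + 1) (adjusted p = 0.0195 for each, exact). Outside the order, ocln was at 480.1 ± 115 CPM in the CUZD1 gate, 319.6 ± 139.8 CPM in the goblet gate (123 nuclei) and 307 ± 83.4 CPM in nuclei of several gates, none of them tested. None of the 3 copies that shared its highest gates was above ungated nuclei in the ionocyte or Notch1 gates by mean CPM.

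LOC106612824 was at 611 ± 277 CPM in the Notch1 gate, 307 ± 123 CPM in ungated nuclei and 207 ± 94.4 CPM in the COL4A1 gate (SD, n = 8), with nuclei of several gates at 326 ± 155 CPM and the CUZD1 gate at 388 ± 222 CPM. It was at 195 ± 96.8 CPM in the RHCG gate, where the other copies were highest. The Notch1 gate held 374 nuclei, 22 to 76 per sample. Its values there were 576 and 193 CPM at T1, 962 and 982 at T2, 629 and 466 at T3, and 355 and 728 at T4, and every one lay above that of the RHCG gate of the same sample. The difference was 1.62 ± 0.92 in log2(CPM + 1) (8 of 8 samples, exact sign-flip test, adjusted p = 0.0195), and the Notch1 gate also lay above ungated nuclei, by 0.95 ± 0.68 in 7 of 8 samples (adjusted p = 0.0376, exact). The pair of Notch1 and RHCG gates was not among the planned comparisons and was added with these levels in view. Its p-values, here and for the other 4 genes, therefore describe a difference already seen. Nuclei positive for both RHCG and Notch1 were in neither gate, so that the gating may also have widened the difference. With the gate opened at 1 UMI of its markers, the difference between the Notch1 and RHCG gates was 0.93 and no longer passed the test (p = 0.0859, exact, unadjusted). The other 4 genes had the reverse order, being higher in the RHCG gate than in the Notch1 gate in 8 of 8 samples, by 2.41 for LOC106581065, 3.53 for LOC106612819, 3.37 for LOC106563812 and 1.37 for ocln (adjusted p = 0.0195 for each, exact). LOC106612819 and LOC106563812 each had 1 Notch1 gate sample at 0 CPM, so that the size depends on the pseudocount. With 10 CPM in place of 1 the differences were 2.96 and 2.78, and without T1 replicate 2, the sample at 0, that of LOC106612819 was 2.85.

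The ccl28 gate was included because an earlier clustering of these nuclei had placed LOC106612824 highest in a cluster led by a keratin gene and ccl28, a chemokine gene of mucosal surfaces, so its level there is given as a description. In the 81 nuclei of that gate (3 to 30 per sample) LOC106612824 was at 1582 and 1137 CPM at T1, 2139 and 2181 at T2, 1037 and 2802 at T3, and 1531 and 1978 at T4. Their mean of 1798 ± 590.1 CPM (SD, n = 8) was the highest of the 5 genes in any gate described here. It was found in 82.7% of those nuclei, and the other 3 copies averaged 36.0 to 91.0 CPM there.

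**Figure D1:**
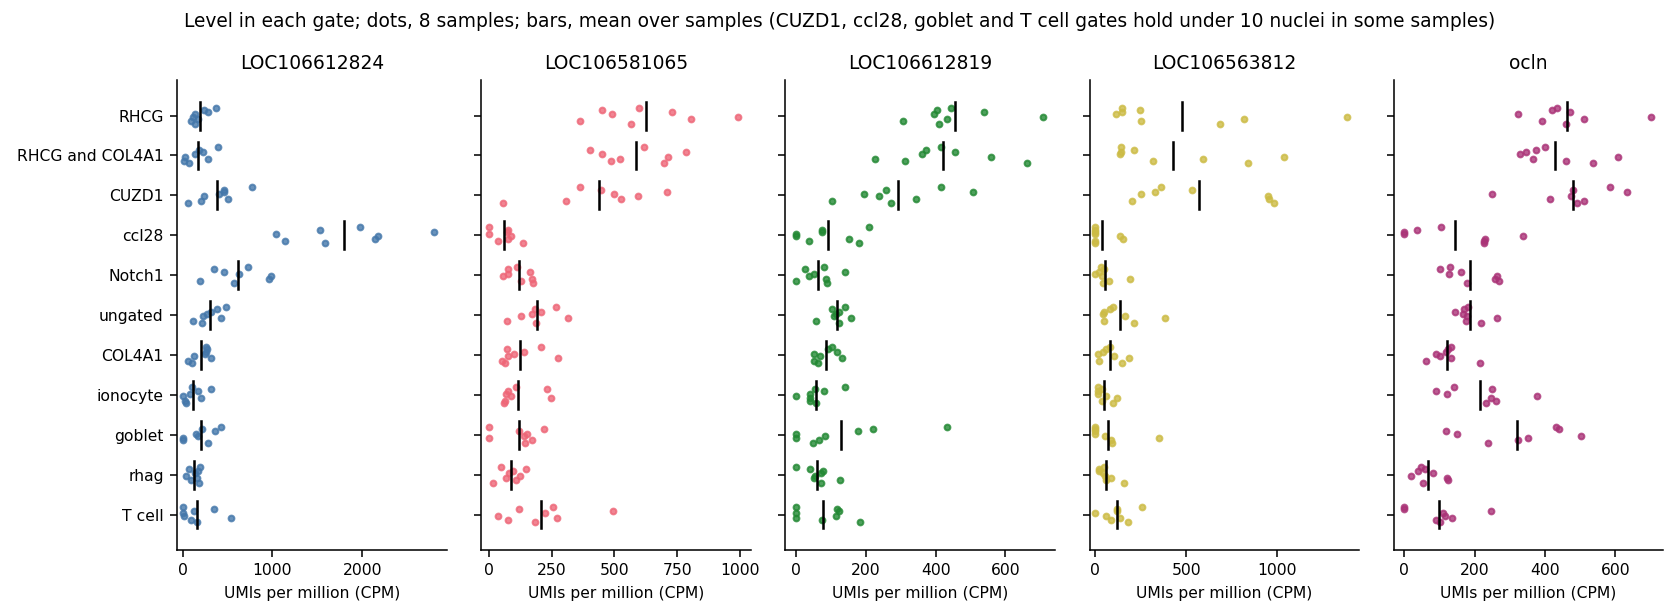
Level of each gene (horizontal axis, CPM) in 11 classes of nuclei (vertical axis); dots are samples and bars their mean. LOC106581065, LOC106612819, LOC106563812 and ocln are high in the RHCG gate (means 624, 455, 475 and 464 CPM), while LOC106612824 is high in the Notch1 and ccl28 gates (611 and 1798 CPM).

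In the RHCG gate 41.1% of nuclei held a UMI of LOC106581065, 32.3% of LOC106612819, 28.5% of LOC106563812, 33.9% of ocln and 15.7% of LOC106612824. In the T cell gate, a cell type without epithelial tight junctions, the 5 shares were 6.67 to 8.52%, at a median of 716.5 UMIs per nucleus, which gives a level of background. In the 5 samples with enough T cell gate nuclei, LOC106612824 had a mean of 133 CPM in the RHCG gate and 161 CPM in the T cell gate. With all samples pooled the order was reversed, at 191 and 96.1 CPM. Within the 5 samples it was higher in the RHCG gate in 3, with a mean log2 difference of 1.72 toward that gate. This did not pass the test (exact sign-flip test, unadjusted p = 0.4375), so its 2 levels could not be told apart. LOC106581065, LOC106612819, LOC106563812 and ocln were higher in the RHCG gate in 5 of 5 (exact sign-flip test, unadjusted p = 0.0625, the smallest possible there). By mean CPM over all samples, some with few T cell gate nuclei, the rhag gate lay below the T cell gate for each gene (LOC106581065, 86.8 against 207). When each nucleus was thinned to 500 UMIs, leaving out 775 shallower nuclei (715 of them from T2, and 16, 24 and 20 from T1, T3 and T4), the RHCG gate shares were 24.6% for LOC106581065, 17.6% for LOC106612819, 16.6% for LOC106563812 and 18.2% for ocln, against 3.36 to 7.09% in the T cell gate for the 5 genes. LOC106612824 was then found in 8.06% of RHCG gate nuclei, 13.1% of Notch1 gate nuclei and 54.5% of ccl28 gate nuclei. By this measure its difference between the Notch1 and RHCG gates, a mean of 5.61 percentage points, had the same sign in 5 of 8 samples and did not pass the test (exact sign-flip test, p = 0.0703). The RHCG gate held 18.9% of all UMIs but 34.5% of those of LOC106581065, 34.6% of LOC106612819, 34.3% of LOC106563812 and 29.9% of ocln, and 13.4% of those of LOC106612824.

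Within the RHCG gate and with nuclei thinned to the same depth, the 3 copies and ocln were compared in pairs. LOC106612819 was found in 24.1% of nuclei with LOC106581065 and in 14.9% of those without it (means over samples, higher in 8 of 8). Occludin was found in 27.1% of nuclei with LOC106563812 against 15.9% without, and in 26.4% with LOC106612819 against 15.9% without, both in 8 of 8 samples. The other pairs were less even over samples: with LOC106581065 against without it, LOC106563812 was found in 20.1 and 14.5% (higher in 7 of 8) and ocln in 23.2 and 15.6% (6 of 8), and LOC106563812 was found in 19.7% with LOC106612819 and 14.8% without (7 of 8). LOC106612824 had no such partner in this gate: LOC106581065 was found in 20.6% of nuclei with it and 24.1% without, and was higher in those with it in 2 of 8 samples. These shares are descriptions of sparse counts and were not tested.

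The levels over time turned on LOC106563812. Over all nuclei its levels were 470.5 and 168 CPM at T1, 531 and 767 at T2, 87.6 and 97.3 at T3, and 157 and 109 at T4. Both T2 samples lay above all 6 others, and both T3 samples below all others. The T2 mean was 649 CPM and the T3 mean 92.5 CPM, a ratio of 7.02. In the edgeR quasi-likelihood test of summed counts (adjusted p over all 24815 genes tested, called under 0.01), the log2 fold change from T2 to T3 was -2.90 ± 0.48 (SE) with an adjusted p of 0.0173, so that it was not called with all nuclei summed. Without either T1 library it was called (adjusted p = 0.00335 without T1 replicate 1 and 0.00316 without T1 replicate 2, edgeR), and over the 8 fits that left out a library the adjusted p ran from 0.00316 to 0.146. With all nuclei summed, 0 of the 5 genes were called in the 4 contrasts by edgeR, where 0.00403% of all genes were called between T2 and T1, 0.302% between T3 and T2, 0.125% between T3 and T1 and 0% between T4 and T3. Of these 20 results, 7 had an unadjusted p under 0.05 (10.8% of the results of all genes), and DESeq2 called 1 (0.702% of those of all genes), the fall of LOC106563812 from T2 to T3.

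Within the RHCG gate LOC106563812 fell from T2 to T3. Its levels there were 683 and 254 CPM at T1, 819 and 1381 at T2, 116 and 149.8 at T3, and 249 and 146 at T4. Both T2 samples again lay above all others, and the T3 and T4 samples were the 4 lowest. The log2 fold change was -3.20 ± 0.47 (SE, edgeR, adjusted p = 0.00178), a ratio of 8.26 between the means of 1100.0 and 133 CPM. It was the only one of the 5 genes called in that gate and contrast, in which 0.764% of 13358 genes were called and 0.442% were called lower. In the other contrasts of the gate none of the 5 was called, where 0.0225% of genes were called between T2 and T1, 0.18% between T3 and T1 and 0% between T4 and T3. Of the 20 results in the gate edgeR called 1, with 6 at an unadjusted p under 0.05 (9.78% over all genes), and DESeq2 called 1 (0.326%). Leaving out T3 replicate 1 gave -3.00 with an adjusted p of 0.0418 and leaving out T3 replicate 2 gave -3.44 with 0.0331, neither under 0.01, so that the call needs both T3 libraries. It was called without T2 replicate 2, the library with the deepest nuclei, at -2.68 and an adjusted p of 0.00319. Each of these fits leaves 1 library at a time point, which is assumed to vary like those of the other time points. Thinned to 500 UMIs, the share of RHCG gate nuclei with a UMI of this gene was 19.6 and 10.4% at T1, 32.5 and 32.4% at T2, 5.70 and 7.34% at T3, and 11.3 and 5.86% at T4. The T2 samples, far apart in depth, were alike in this share.

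From T1 to T2 the difference of LOC106563812 in the RHCG gate was 1.34 on the log2 scale, which did not pass the test (edgeR, adjusted p = 0.315), and the T1 samples lay far apart. From T3 to T4, after 24 h in seawater, it was 0.56 and was not called, and 1 T4 value lay between the T3 values and the other above them. Between T1 and T3 it was -1.86 (adjusted p = 0.0779). Over the 4 time points jointly the gene was called in the RHCG gate (edgeR, adjusted p = 0.00204, where 0.966% of genes were called), in the RHCG and COL4A1 class (0.00711, 0.678%) and in nuclei of several gates (0.00793, 0.424%). It was not called jointly over all nuclei (0.0167), in ungated nuclei (0.114) or in the COL4A1 gate (0.330).

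The lower level at T3 was seen in other classes of nuclei as well. In the RHCG and COL4A1 class LOC106563812 was at 592 and 1037 CPM at T2 and 137 and 141 at T3. The log2 fold change of -2.69 ± 0.50 had an adjusted p of 0.0148 (edgeR, 0.184% of genes called), and restricted to nuclei of 200 to 2500 genes it was -1.74 with an adjusted p of 0.195. In nuclei of several gates the levels were 476 and 937 CPM at T2 and 110.0 and 105.2 at T3, and the fall of 2.84 ± 0.45 on the log2 scale was called (adjusted p = 0.00928, edgeR, 0.25% of genes called). That call was lost without T1 replicate 2 (adjusted p = 0.0106), T2 replicate 2 (0.0456), T3 replicate 1 (0.0814), T3 replicate 2 (0.109) or T4 replicate 1 (0.0101), and with the replicate number as a block (0.0156), edgeR in each.

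In classes where the gene was lower the difference had the same direction but was not called. Ungated nuclei had 383 and 166 CPM at T2 and 45.6 and 50.9 at T3 (-2.51 ± 0.60, edgeR, adjusted p = 0.0628, where 0.0111% of genes were called), and the COL4A1 gate 184 and 103 CPM at T2 and 13.8 and 41.2 at T3 (-2.50 ± 0.66, adjusted p = 0.137, 0.0748%). In the CUZD1 gate, not tested, the T2 values of 958 and 949.7 CPM lay above the T3 values of 250.0 and 329.8. These rest on 167 and 5 nuclei at T2 and on 54 and 28 at T3. The makeup of the samples also varied, the RHCG gate holding from 12.2 to 29.2% of the nuclei of a sample. It held 29.2 and 16.1% at T2 and 18.5 and 24.7% at T3, so that duplicates differed in this share. With every class given the same weight in each sample, a calculation added after the data were seen, the log2 ratio of the T3 mean to the T2 mean over all nuclei was -2.72, against -2.81 without the weighting.

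**Figure D2:**
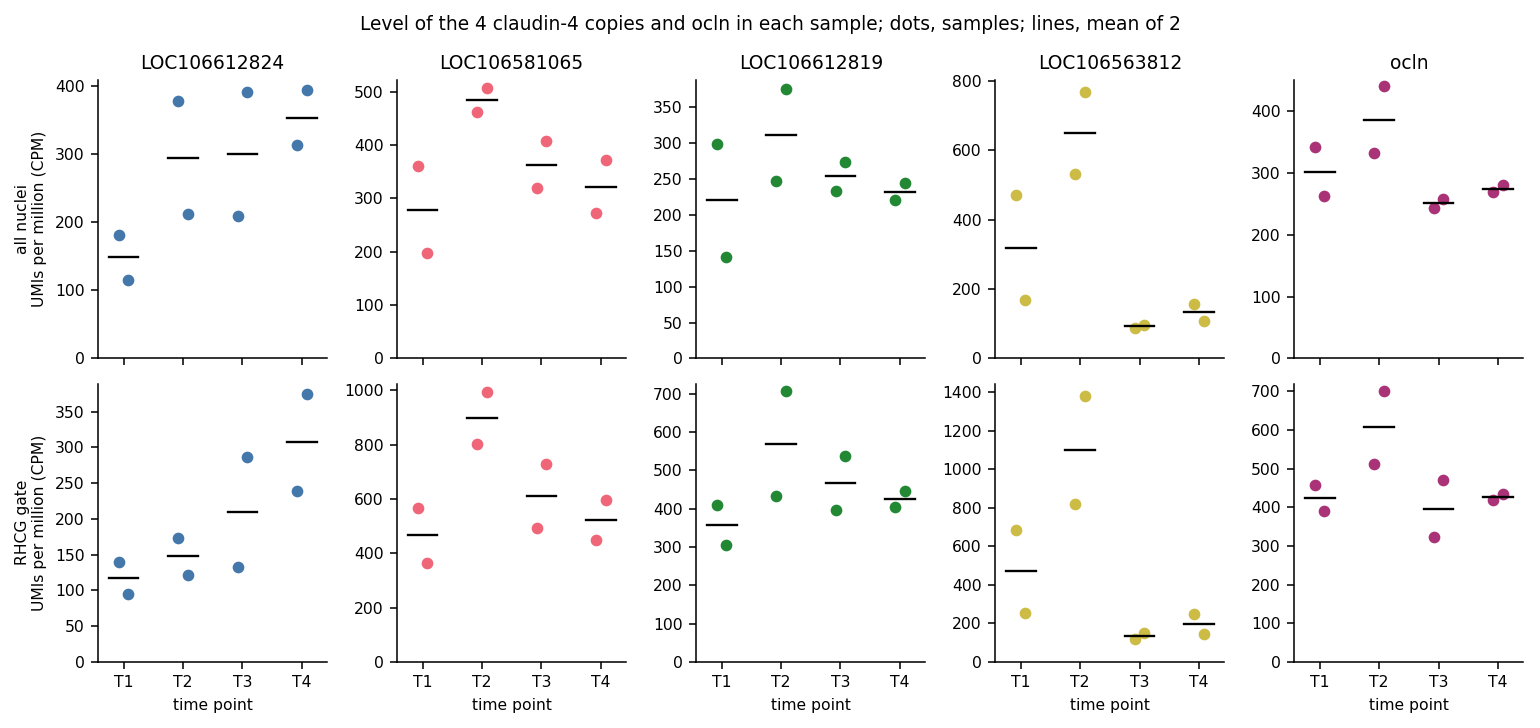
Level of each gene (vertical axis, CPM) at T1 to T4 in all nuclei (upper row) and in the RHCG gate (lower row); dots are the 2 samples of a time point and lines their mean. LOC106563812 is at 819 and 1381 CPM at T2 and at 116 and 149.8 CPM at T3 in the RHCG gate, and the other genes show no such step.

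None of the other 4 genes was called by edgeR over all nuclei or in any of 8 classes. Of the 124 results in these classes edgeR called 2, both the step of LOC106563812 from T2 to T3, with 25 at an unadjusted p under 0.05 (8.05% over all genes in these classes), and DESeq2 called 5 (0.23%). All 5 genes passed the filter on low counts in the RHCG gate, the RHCG and COL4A1 class, several gates, ungated nuclei and the COL4A1 gate, 3 (LOC106612824, LOC106581065 and ocln) in the ionocyte gate, 2 (LOC106612824 and ocln) in the Notch1 gate and 1 (LOC106612824) in the rhag gate. Over the 4 contrasts together, the share of all results called was 0.0823% in the RHCG and COL4A1 class, 0.077% in several gates, 0.00972% in ungated nuclei, 0.0312% in the COL4A1 gate, 0.449% in the ionocyte gate, 0.0497% in the Notch1 gate and 0.213% in the rhag gate.

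The levels of the other genes overlapped more between time points. LOC106581065 in the RHCG gate was at 567 and 364 CPM at T1, 803 and 993 at T2, 492 and 729 at T3, and 450.1 and 598 at T4. The T2 samples were the 2 highest, with a difference from T2 to T3 of -0.70 (edgeR, adjusted p = 0.337). Occludin in that gate was at 458 and 391 CPM at T1, 512 and 701 at T2, 323 and 469.7 at T3, and 420.0 and 435 at T4. Its T2 samples were also the 2 highest, and the difference from T2 to T3 was -0.76 (adjusted p = 0.252). LOC106612819 was at 410.1 and 306 CPM at T1, 433 and 707 at T2, 395 and 539 at T3, and 403 and 445 at T4, with overlapping T2 and T3 values and a difference of -0.44 (adjusted p = 0.577).

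LOC106612824 had its highest RHCG gate value at T4 rather than at T2, although this was not called. It was at 140.2 and 95.3 CPM at T1, 174 and 121 at T2, 132 and 287 at T3, and 239 and 375 at T4. From T2 to T3 its difference was 0.40 (edgeR, adjusted p = 0.675). Over all nuclei it was at 182 and 115 CPM at T1, 377 and 212 at T2, 209 and 392 at T3, and 313 and 395 at T4, so that both T1 samples were below all others. Its log2 difference from T1 was 1.01 at T2 (adjusted p = 0.658) and 0.96 at T3 (adjusted p = 0.263). In the Notch1 gate it differed between T1 and T2 by 1.63 ± 0.50 (SE, edgeR, adjusted p = 0.703, where 0% of genes were called).

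**Figure D3:**
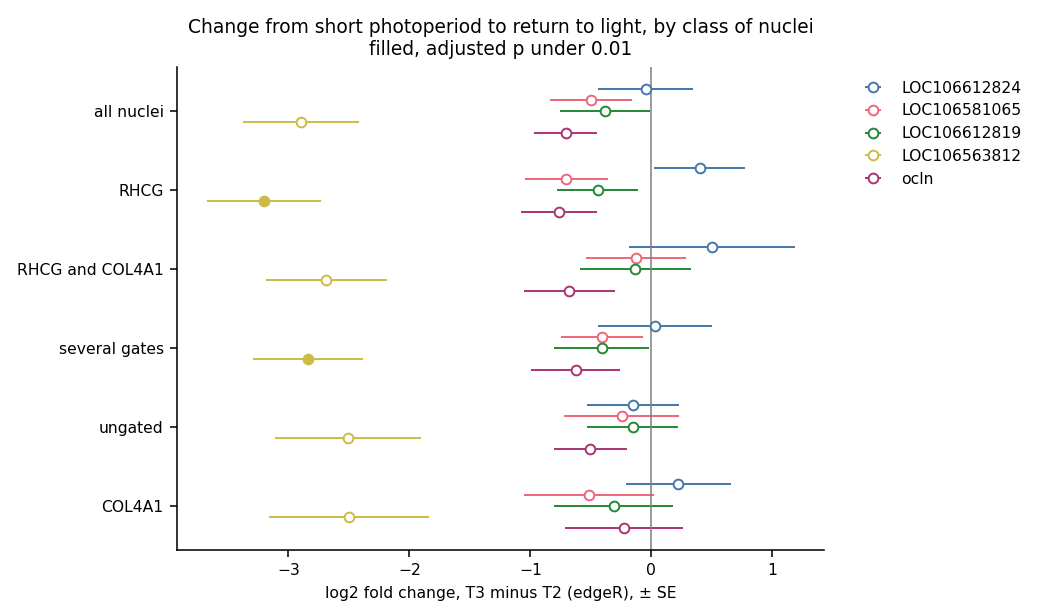
Log2 fold change from T2 to T3 (horizontal axis, edgeR, ± SE) of the 5 genes in all nuclei and in 5 classes of nuclei; filled points have an adjusted p under 0.01. LOC106563812 lies between -3.20 and -2.50 in every class drawn and is filled in the RHCG gate and in several gates, and the other genes lie nearer to 0.

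Because a share within one library does not depend on its depth, the copies were also compared as parts of the summed UMIs of the 4. LOC106563812 made up 35.9 and 27.0% at T1, 32.8 and 41.2% at T2, 10.3 and 8.31% at T3, and 16.3 and 9.74% at T4. All 4 samples of T1 and T2 lay above all 4 of T3 and T4, and the means were 31.4, 37.0, 9.32 and 13.0%. An exact permutation test of the samples over the 4 time points gave p = 0.0476, or 0.0952 adjusted over the 4 copies, and so did not pass 0.05. LOC106612824 made up 13.9 and 18.5% at T1, 23.3 and 11.4% at T2, 24.7 and 33.5% at T3, and 32.5 and 35.2% at T4. Here the T3 and T4 samples lay above all T1 and T2 samples (exact permutation test, adjusted p = 0.143). The 4 shares add up to a whole, so that a lower share of LOC106563812 by itself raises the others. Over all nuclei the mean level of LOC106612824 was 149, 295, 300 and 354 CPM at T1 to T4. That of LOC106581065 was 279, 484, 363 and 322 CPM. The mean shares of LOC106581065 ran from 27.9 to 36.2% and those of LOC106612819 from 17.7 to 25.4%. For LOC106612819 the exact p was 0.0286 and the adjusted p 0.0952.

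The copies were also divided unequally between classes of nuclei. With the 8 samples pooled, the RHCG gate divided its 9776 claudin-4 UMIs into 35.1% LOC106581065, 29.7% LOC106563812, 25.1% LOC106612819 and 10.1% LOC106612824. The CUZD1 gate had 32.9% LOC106563812 and 24.7% LOC106612824. In the COL4A1 gate LOC106612824 made up 46.5%, in the Notch1 gate 71.6% of 324 UMIs, and in the ccl28 gate 89.7% of 358 UMIs.

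**Figure D4:**
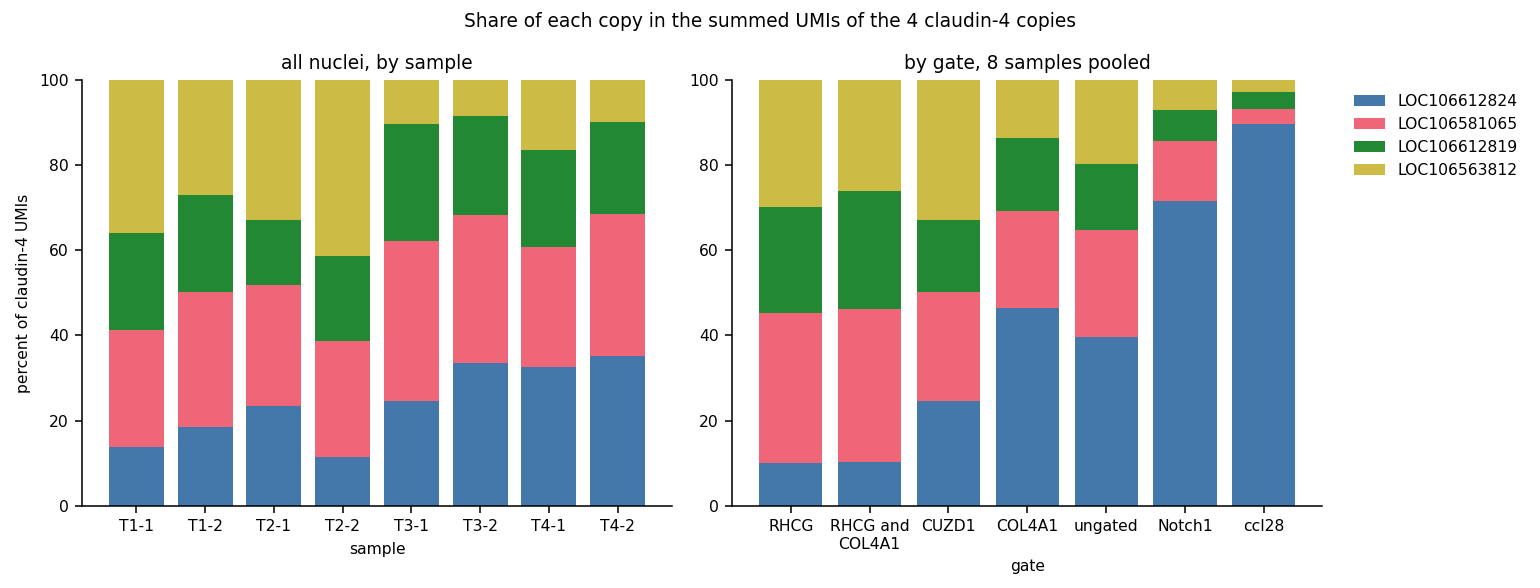
Share of each copy in the summed UMIs of the 4 claudin-4 copies (vertical axis, percent), by sample over all nuclei (left) and by gate with samples pooled (right). LOC106563812 has a mean of 37.0% at T2 and 9.32% at T3 in the left panel, and LOC106612824 makes up 71.6% and 89.7% in the Notch1 and ccl28 gates in the right.

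A few nuclei carried much of the signal. The 197 nuclei richest in a gene, 1% of all, held 33.0% of the UMIs of LOC106563812, 27.5% of LOC106612824, 22.0% of LOC106612819, 19.9% of LOC106581065 and 19.4% of ocln. Deep nuclei also held much of all UMIs, those with more than 2500 genes holding 8.43 to 47.0% per sample. The share of all UMIs in the deepest 1% was not computed, so these values do not separate the genes from depth. At least 10 UMIs of LOC106563812 were found in 138 nuclei, of which 115 were from T2 replicate 2 and 20 from T1 replicate 1. These nuclei had a median of 7011 UMIs in all, against 849 over the series, and held 27.3% of the UMIs of the gene. For LOC106612824 there were 68 such nuclei, with 44 of them in several gates and 9 in the ccl28 gate.

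Across 56 points, each a class of nuclei in a sample and sharing libraries and depth with others, LOC106581065 and ocln had the most similar levels of the 5 genes (Pearson's r = 0.73 in log2(CPM + 1)), followed by LOC106581065 with LOC106612819 (0.68) and with LOC106563812 (0.65). LOC106612824 had r between -0.12 and 0.24 with the other 4. Among 10813 genes with at least 500 UMIs, the named genes nearest to LOC106581065 were LOC106589897 (tryptase-like, a serine protease, r = 0.90), LOC106576594 (GTPase IMAP family member 8-like, 0.87) and LOC106587985 (NAD(P)H dehydrogenase 1-like, 0.86). Nearest to ocln were LOC106612675 (kunitz-type protease inhibitor 2-like, 0.90), LOC106563124 (chloride intracellular channel 4-like, 0.90) and LOC106567957 (coxsackievirus and adenovirus receptor homolog, a junction adhesion protein, 0.89). Nearest to LOC106563812 were LOC106592537 (zymogen granule membrane protein 16-like, 0.84), LOC100136577 (MHC class II beta, which presents antigen, 0.83) and LOC106578055 (ferric-chelate reductase 1, 0.83). Nearest to LOC106612819 were LOC106581535 (claudin-8-like, 0.82), LOC106573917 (a phospholipase A2 inhibitor-like gene, 0.81) and LOC106613067 (short neurotoxin 8-like by name, 0.80). For LOC106612824 they were tmem86a, fxyd9a and tcpb, each at 0.73.

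The other genes of the tight junction were taken as a list of 34, of which 29 are not among the 5. By pooled level, 9 of the 29 were highest in the RHCG gate or the RHCG and COL4A1 class, 9 in the ionocyte gate, 8 in the rhag gate, 2 in the Notch1 gate and 1 in the COL4A1 gate, among the classes tested. How all genes divide between these classes was not computed, so these counts, and those by role below, only describe the list. The list genes with most UMIs in each role were also spread over classes. Among claudins, cldx (8766 UMIs) was at 465 CPM in the ionocyte gate and 432 CPM in the RHCG gate, and LOC106581535 (claudin-8-like), named above for its likeness to LOC106612819, was at 512 CPM in the RHCG gate. Among MARVEL proteins, the family of occludin, a second occludin gene, LOC106567754 (4083 UMIs), was at 188 CPM in the RHCG and COL4A1 class and 48.2 CPM in the rhag gate, and marveld2, the gene of tricellulin, which seals corners where 3 cells meet, was at 151 CPM in the RHCG gate and 8.61 CPM in the rhag gate. Both were highest where ocln was, among the classes tested. Of the 4 other MARVEL genes, 3 were highest in the RHCG gate or the RHCG and COL4A1 class and 1 in the rhag gate. Of the 10 other claudins, only 2 were highest in those RHCG classes. The rest were highest in the rhag gate (3), the ionocyte gate (3), the COL4A1 gate (1) and the Notch1 gate (1).

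Of the 10 scaffold genes, 6 were highest in the ionocyte gate, 2 in the rhag gate and 2 in the RHCG gate or the RHCG and COL4A1 class. Here too no share of all genes stands beside the counts. LOC106587322 (cingulin-like protein 1) was at 784 CPM in the ionocyte gate and 281 CPM in the RHCG gate, LOC106562151 (ZO-1-like) at 160.2 CPM in the rhag gate and 136 CPM in the RHCG gate, and LOC106565841 (MAGI1-like) at 217 CPM in the RHCG gate. Of the adhesion molecules, LOC106567957 was at 440.2 CPM and LOC106602884 (JAM-A-like) at 205 CPM in the RHCG gate, whereas LOC106603674 (JAM-C-like) was at 537 CPM in the rhag gate and 22.6 CPM in the RHCG gate. A further gene named claudin-4-like but not matched to CLDN4, LOC106606887, picked here after its values were seen, was at 756 CPM in the COL4A1 gate and 63.4 CPM in the RHCG gate.

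Of the 29 other genes, 0 were called by edgeR between T2 and T3 over all nuclei, where 0.302% of all genes were called. Of them 9 had an unadjusted p under 0.05 (17.8% of all genes) and DESeq2 called 2 (1.52% of all genes). Their median log2 fold change was -0.25, with 11 above 0 and 18 below, beside a median of 0.00 over all genes. In the RHCG gate 21 of them could be tested, and 0 were called by edgeR from T2 to T3, with 8 at an unadjusted p under 0.05 (15.4% of all genes) and 0 called by DESeq2 (0.891%). Their median there was -0.43, with 4 above 0 and 17 below, beside 0.01 over all genes, and from T1 to T2 it was 0.51, with 16 above 0 and 5 below, beside 0.00. The log2 fold change of LOC106563812, -3.20, was the farthest from 0 of the list in that gate and contrast. Over the 4 time points jointly 1 of the 29 was called with all nuclei summed (0.83% of all genes): LOC106563774 (claudin-3-like), at an adjusted p of 0.00768. Its T2 to T3 log2 fold change of -1.10 had an adjusted p of 0.0233, and it was highest in the goblet gate at 1045 CPM.

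**Figure D5:**
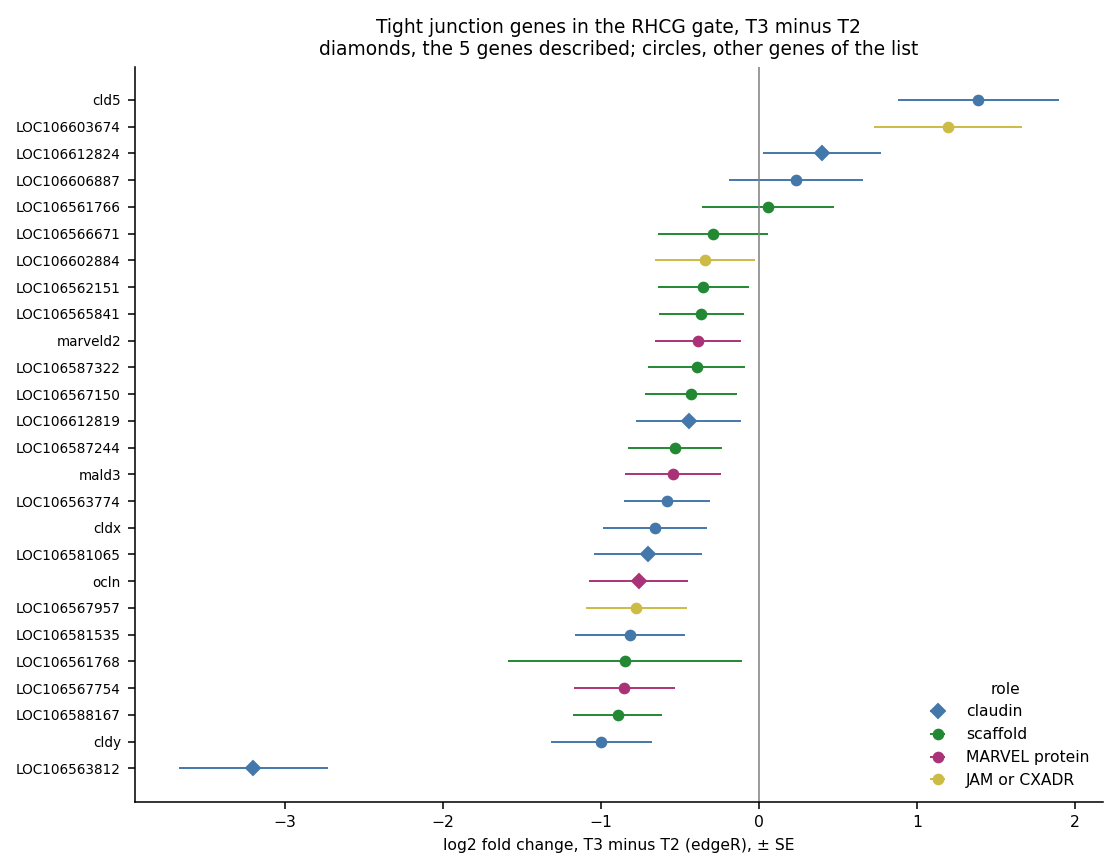
Log2 fold change from T2 to T3 in the RHCG gate (horizontal axis, edgeR, ± SE) of the tight junction genes tested there (vertical axis), coloured by role; diamonds are the 5 genes described and circles the 21 others. LOC106563812 is set apart at -3.20, and 17 of the 21 others lie below 0.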

How the data were processed

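Cell Ranger was used by the authors to turn reads of Chromium 3′ v3 libraries of gill nuclei into the deposited values, on the ICSASG_v2 assembly with the NCBI annotation. The deposited values are raw UMI counts per gene and nucleus. Whether intronic reads were counted, and strand, are not given in the sources used here. A gene is listed for a sample only with UMIs in 3 or more nuclei there. The 5 genes, the gates and the tight junction list were chosen with earlier results of these data known.

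All nuclei were used, and 0 columns of values were left out. UMIs were summed per sample, or per sample and gate, for gates with at least 10 nuclei in all 8 samples, and tested with edgeR 4.0.16 under R 4.3.3 (TMM, filterByExpr with a minimum count of 10, quasi-likelihood test over all samples, Benjamini-Hochberg adjustment over all genes tested, threshold 0.01). The SE of an edgeR log2 fold change was derived from the test, as its absolute value divided by the square root of the quasi-likelihood F statistic. Levels in gates were compared within samples by exact sign-flip permutation tests on log2(CPM + 1), two-sided, with a threshold of 0.05. The plan held gates next to each other in the order and each gate against a comparator gate. That order came from the mean CPM of the gene in the samples tested, so the levels themselves set which neighbours were compared. The pair of Notch1 and RHCG gates was added to it with the levels in view. The T cell gate held fewer than 10 nuclei in some samples, so the rhag gate took its place as comparator after the data were seen. Its marker is listed as LOC106571195. Alternatives were DESeq2 1.42.0, no filter, other gates, nuclei of 200 to 2500 genes, a block for the replicate number, and leaving out each library.

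Named genes are the 5 genes, for each the 3 named genes of highest Pearson's r, and from the list the genes called and the 3 of most UMIs in each role, the 5 genes counted among them. Python 3.11.15 with numpy 2.4.6 and pandas 2.3.3 was used for the rest. The fitting code was tested on simulated data.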

Additional observations from a re-analysis of the deposited data

How the results depend on the processing

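For 68 results, 909 alternatives were computed, of which 833 were labelled as unchanged. For tests of change and of place this means the same direction and side of the threshold. A difference that was not called and stayed so is included. For counts it means a value within a set fold. For ranges of copy shares it means the same side of the threshold. With a library left out, or for weighted ratios, it means a shift smaller than the spread of duplicates. Every call in the counts that follow was of LOC106563812. With DESeq2 the share of all results called was 0.702% over all nuclei and 0.23% in the 8 classes. For the other alternatives no such share is given, so their counts have no background beside them. The count of calls over all nuclei (0) became 1 at a threshold of 0.05, 1 with DESeq2 and 2 with no filter, and ran from 0 to 1 with a library left out. The count within gates (2) became 4 at 0.05, 5 with DESeq2, 9 with no filter and 5 with a relative gate, a choice made after seeing the data, and ran from 0 to 4 with a library left out. Replicate numbers did not pair the samples (r of deviations between time points from -0.05 to 0.20 over 24815 genes). With the replicate block the count within gates was 1, the call lost being that of several gates (adjusted p = 0.0156, edgeR), and the block changed no other call. The fall of LOC106563812 from T2 to T3 over all nuclei was -2.90 with DESeq2 (adjusted p = 0.000412), past 0.01. In the main edgeR fit it was -2.90 with an adjusted p of 0.0173, past 0.05 only. With no filter it was again -2.90, and the adjusted p by edgeR was 4.17e-14. The size and the samples are those of the main fit, so this far smaller p-value is not stronger support. The fall ran from -3.14 to -2.60 with a library left out, and in the RHCG gate from -3.58 to -2.68.

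The difference of LOC106612824 between the Notch1 and RHCG gates was 0.93 with the gate at 1 UMI (exact p = 0.0859), and 5.61 percentage points as a thinned share (exact p = 0.0703). The Notch1 gate held 229 nuclei at 3 UMIs. The range of the share of LOC106612819 over time points was 9.07 points in nuclei of 200 to 2500 genes (exact permutation, adjusted p = 0.0381) and 5.25 to 10.2 points with a library left out.

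Directions that turned all belong to differences that were not called. In the RHCG gate ocln T3 minus T1 became 0.032 with the gate at 1 UMI and ocln T4 minus T3 became -0.17 with the relative gate, where LOC106612819 T3 minus T1 became -0.0076. With a library left out the ranges over all nuclei were -0.59 to 0.42 (LOC106612824, T3 minus T2), -0.16 to 0.79 (LOC106612824, T4 minus T3), -0.11 to 0.94 (LOC106581065, T3 minus T1), -0.41 to 0.047 (LOC106581065, T4 minus T3), -0.37 to 0.91 (LOC106612819, T3 minus T1) and -0.25 to 0.025 (LOC106612819, T4 minus T3). In the RHCG gate they were -0.32 to 0.86 (LOC106612824, T3 minus T2), -0.53 to 0.12 (LOC106581065, T4 minus T3), -0.81 to 0.050 (LOC106612819, T3 minus T2), -0.40 to 0.13 (LOC106612819, T4 minus T3), -0.45 to 0.18 (ocln, T3 minus T1) and -0.19 to 0.43 (ocln, T4 minus T3). Where a value changed with a setting, the cause was not tested. Duplicates limit what the tests can call, and gates under 10 nuclei in a sample were described only.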
